A study of Mus musculus with 6 samples.

Results

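The nuclear genes for the subunits of oxidative phosphorylation were examined in whole embryonic mouse kidneys (metanephros) at E14.5, a stage in midgestation. Members were the genes whose single current symbol starts with Nduf, Uqcr, Cox4 to Cox8 or Atp5, together with Sdha to Sdhd, Cyc1, Cycs and Chchd10. This gave 74 genes, read by 102 probe sets, out of 8251 genes and 12422 probe sets on the array. Where a gene had several probe sets, the one brightest on average (log2 scale) stood for it. By name, 31 genes belong to complex I, 4 to complex II, 8 to complex III, 15 to complex IV and 14 to complex V, beside cytochrome c (Cycs) and Chchd10.

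The samples were 2 pools of Wnt4 mutant kidneys and 4 pools of wild-type kidneys, each on a one-colour Affymetrix MG_U74Av2 array. Each mutant pool came from 4 to 5 embryos (8 to 10 kidneys) with the Wnt4tm1Amc allele, and the strain is given as 129. Wild-type pools held 2 kidneys each, with the strain given as CD-1, so that genotype, strain label and pool size cannot be told apart. The protocol text of both groups speaks of CD-1 matings. Wnt4, a signal needed to form the renal vesicle from which the nephron grows, had signals of 74.2 and 34.5 in the mutant arrays, against 699 to 946 in the wild-type arrays. The metanephric markers Six2, Foxd1, Wt1 and Gdnf had signals of 753 or more on all 6 arrays except for Gdnf in wild-type replicate 1 (742). The further markers Pax2 and Ret were low and differed between the groups. Pax2 had 115 and 78.7 in the mutant arrays against 115 to 278 in the wild-type arrays, and Ret 8.08 and 8.61 against 30.5 to 104. Wild-type replicates 2 and 4 stood above replicates 1 and 3 in the members' median, and the counts are also given without them.

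Oxidative phosphorylation is carried out by 4 respiratory complexes of the inner mitochondrial membrane and by ATP synthase. Complex I (NADH dehydrogenase) and complex II (succinate dehydrogenase) pass electrons to ubiquinone, complex III passes them to cytochrome c, and complex IV (cytochrome c oxidase) passes them to oxygen. The proton gradient that complexes I, III and IV build drives ATP synthase, called complex V. In the mature kidney, the proximal tubule and the thick ascending limb of the loop of Henle are rich in mitochondria, since their transport of salt and solutes uses much ATP.

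Promoter sequence was available for 60 of the 74 genes, as 65 windows that run from 250 bases before to 50 bases after an annotated start (RefSeq, build GRCm38.p6). Shown are 4 genes that fell in the mutant and Ndufa8, the 1 gene that rose. Each window is written 5′ to 3′ on the gene's own strand (minus for Sdhd, Atp5e and Ndufa8, plus for Chchd10 and Uqcrc1). Capitals mark matches to the motifs described after the sequences.
Chchd10 chr10:75932880-75933179: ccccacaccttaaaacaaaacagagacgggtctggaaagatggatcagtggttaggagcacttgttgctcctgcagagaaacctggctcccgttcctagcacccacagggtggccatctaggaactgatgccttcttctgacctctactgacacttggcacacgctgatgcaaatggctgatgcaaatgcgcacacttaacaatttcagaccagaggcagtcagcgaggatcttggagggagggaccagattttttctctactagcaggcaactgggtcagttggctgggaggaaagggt
Sdhd chr9:50603800-50604099: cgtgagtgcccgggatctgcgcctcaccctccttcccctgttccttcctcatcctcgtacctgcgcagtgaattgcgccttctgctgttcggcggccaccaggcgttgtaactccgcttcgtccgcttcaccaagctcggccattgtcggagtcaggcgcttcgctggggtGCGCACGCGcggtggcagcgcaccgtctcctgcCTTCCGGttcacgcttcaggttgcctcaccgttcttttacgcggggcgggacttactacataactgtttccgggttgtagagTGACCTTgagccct
Uqcrc1 chr9:108936398-108936697: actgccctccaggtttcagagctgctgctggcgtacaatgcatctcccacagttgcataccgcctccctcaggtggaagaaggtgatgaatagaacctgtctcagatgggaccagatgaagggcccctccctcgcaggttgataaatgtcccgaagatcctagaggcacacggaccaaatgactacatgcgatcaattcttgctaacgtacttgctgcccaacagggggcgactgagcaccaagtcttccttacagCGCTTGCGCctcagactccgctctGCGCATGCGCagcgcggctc
Atp5e chr2:174464052-174464351: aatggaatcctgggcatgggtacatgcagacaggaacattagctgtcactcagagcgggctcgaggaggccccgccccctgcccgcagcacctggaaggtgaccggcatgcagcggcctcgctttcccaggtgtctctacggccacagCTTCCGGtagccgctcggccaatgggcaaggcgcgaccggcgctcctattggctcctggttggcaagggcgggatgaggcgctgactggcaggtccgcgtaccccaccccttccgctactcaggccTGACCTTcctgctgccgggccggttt
Ndufa8 chr2:36049289-36049588: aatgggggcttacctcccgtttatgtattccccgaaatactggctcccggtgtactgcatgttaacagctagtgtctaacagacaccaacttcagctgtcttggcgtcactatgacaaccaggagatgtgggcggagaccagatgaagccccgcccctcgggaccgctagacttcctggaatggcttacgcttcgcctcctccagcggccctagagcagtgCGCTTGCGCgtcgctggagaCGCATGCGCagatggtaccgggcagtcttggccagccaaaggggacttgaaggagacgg

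The capitals follow 4 motifs of factors known for respiratory genes, searched on both strands. GCGCANGCG, from the motif of nuclear respiratory factor 1, lay in 26.2% of the members' windows and in 6.25% of all 32851 windows of this length. CCGGAAG, of the ETS family that includes GABP (nuclear respiratory factor 2), lay in 24.6% of the members' windows and 8.86% of all. AAGGTCA, of the estrogen-related receptors, lay in 7.69% and 4.72%, and AAGATGGCG, of YY1, in 7.69% and 1.4%. The Sdhd window held the first 3 of these motifs, Uqcrc1 held the first one 3 times (of which 2 matches overlap), Ndufa8 held it at 2 places, and Atp5e held CCGGAAG and AAGGTCA. The Chchd10 window held none of these letters. Among the 13 windows of genes that fell, 6 held GCGCANGCG and 4 held CCGGAAG. A match describes the letters in the window and shows no binding.

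Most oxidative phosphorylation genes had slightly lower signals in Wnt4 mutant kidneys. Of the 74 genes, 67 passed the filter on low signals and were tested; of these, 16 fell, 1 rose and 50 did not pass (limma, adjusted p under 0.05 over all 7981 probe sets). A fall was called for 23.9% of the tested members, where it was called for 6.35% of all 6082 tested genes and for 8.94% of the brightest 25% of genes. A rise was called for 5.13% of all tested genes and 7.63% of the brightest 25%. The median difference of the members, mutant minus wild type, was -0.22 on the scale of log2(signal + 16), a change of -14.1%. The median was 0.01 over all tested genes and -0.04 over the brightest 25%, to which 47 of the 67 members belong. Those 47 members had a median of -0.28. In sign alone, 53 differences were below 0 and 14 above, where 48.6% of all tested genes and 57.2% of the brightest 25% had differences below 0.

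Both mutant signals were under every wild-type signal for 38 of the 67 members (56.7%), where 19.9% of all tested genes and 28.4% of the brightest 25% did so. All 16 genes called lower were among the 38, and the other 22 differed by -0.13 to -0.55 without passing. Both mutant arrays lay above all wild-type arrays for 4 members (Ndufa8, Ndufaf1, Cox6b2 and Cox8b), where 19.3% of all tested genes and 19.1% of the brightest 25% did so. The groups overlapped for the other 25.

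The number of calls depended on single arrays and on the fit. Without mutant replicate 1 it was 3 lower, without mutant replicate 2 it was 4, and without wild-type replicate 2 it was 9. With all 6 arrays, it was 4 in a fit without a variance trend. Chchd10, Sdhd and Uqcrq passed under all 17 alternatives, while the other 13 lost the call under 2 to 11 of them. Without wild-type replicates 2 and 4, 15 of the 16 passed and Ndufab1 did not. The median of all members stayed between -0.27 and -0.18 under the 18 alternatives run for it.

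**Figure D1:**
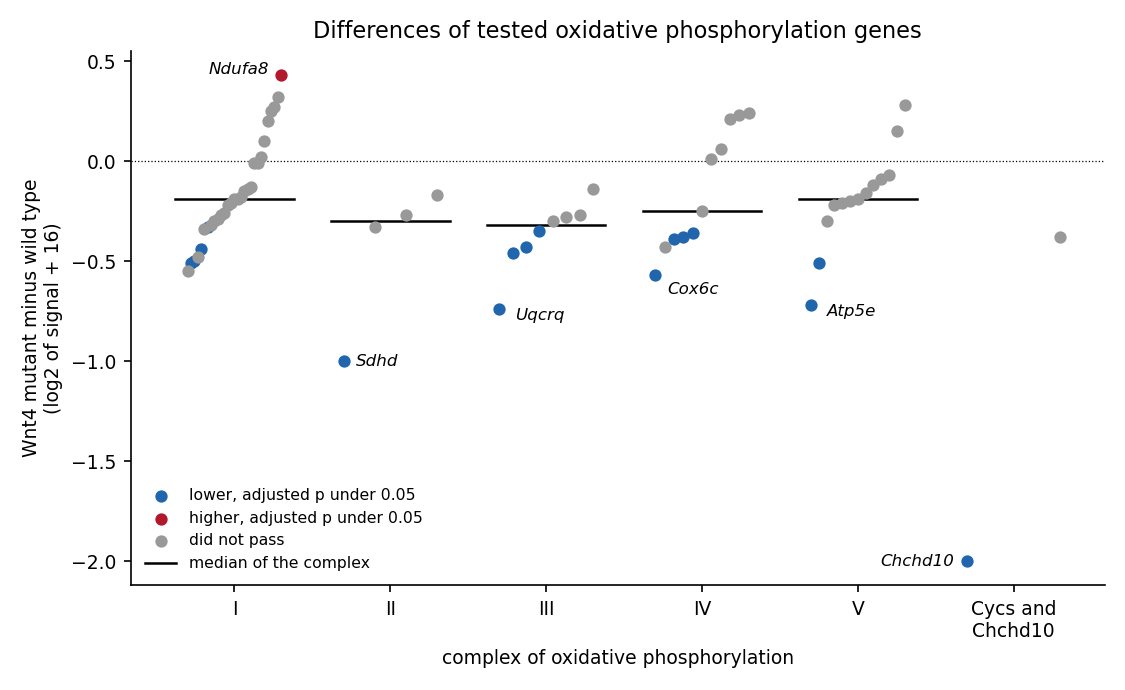
Difference of each of the 67 tested genes, Wnt4 mutant minus wild type on the scale of log2(signal + 16) (vertical axis), by complex (horizontal axis). Each point is a gene, coloured by its call, and the line is the complex's median, drawn for complexes I to V. Chchd10, which fell by 2.00, lies far below the other genes, and Ndufa8 (0.43) is the only gene called higher.

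Markers of several cell types moved between the same groups, and in whole kidneys fewer cells of a type and less RNA per cell cannot be told apart. A fall was called for 6.35% of all tested genes and 8.94% of the brightest 25%. Of 10 tested proximal tubule markers, 6 fell, with a summed signal of 376 to 477 in the mutant arrays against 2228 to 3331 in the wild-type arrays. Of the 4 that did not pass, Aqp1 (-0.06, limma, adjusted p = 0.965), Hnf4a (-1.68, adjusted p = 0.23) and Fbp1 (-1.39, adjusted p = 0.152) overlapped between the groups. Cubn had -0.85 without overlap (adjusted p = 0.109). All 3 tested markers of the loop of Henle and distal tubule fell (summed over 5 measured, 1213 to 1472 against 3182 to 4085). Umod and Slc12a3 were below the filter and not tested. Slc12a3 had 67.2 and 54 in the mutant arrays against 14 to 47.6 in the wild-type arrays, under the 40th percentile of every array. Nephron progenitor markers summed to 5864 to 6152 in the mutant and 8203 to 9329 in the wild type, with 3 of 6 lower. Of those that did not pass, Six2 overlapped between the groups, with 2643 and 2457 against 2584 to 2925 (-0.11, limma, adjusted p = 0.479). Eya1 went the other way (0.27, adjusted p = 0.52), and Wt1 had -0.48 (adjusted p = 0.0823). Ureteric bud markers had 2 of 4 lower, with sums of 3206 to 3419 against 3713 to 4249. One of these was Calb1, which is also counted among the loop and distal tubule markers, and Gata3 of this list had 921 and 990 in the mutant against 544 to 820 in the wild type (0.47, adjusted p = 0.117).

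Markers of stroma, muscle and blood were called higher in part or in full, where a rise was called for 5.13% of all tested genes. All 6 stroma markers rose, with sums of 19063 to 19362 in the mutant against 6938 to 7994 in the wild type. Of 15 tested muscle markers 7 rose (7174 to 7552 against 2450 to 3145, summed over 19), and 8 did not pass. Of the 15 differences 13 were above 0 and 2 below, namely Myh7 (-0.87, limma, adjusted p = 0.231) and Ckm (-0.09, adjusted p = 0.914). The groups overlapped for these and for Des (0.29, adjusted p = 0.679). Of 5 erythroid markers 3 rose (38240 to 39362 against 22716 to 31018), namely the globins Hbb-y (1.66), Hbb-bh1 (2.18) and Hba-x (1.78). The other erythroid markers did not pass: Hba-a1 overlapped between the groups, and Alas2 had 500 and 479 in the mutant against 602 to 799 in the wild type (-0.46, adjusted p = 0.0643). None of the 4 brown fat markers passed the filter, and no marker was at 0. The part of these cell types in the results on oxidative phosphorylation was not tested.

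Chchd10 had the largest fall of all members. It encodes a small protein of the mitochondrial intermembrane space that is mutated in human motor neuron and muscle disease, and it is not a subunit of a complex. Its signals were 667 and 601 in the mutant arrays, against 2371, 2490, 2434 and 3123 in the wild-type arrays. The groups were far apart, with the highest mutant array well below the lowest wild-type array. On the log2 scale it fell by 2.00 ± 0.13 (SE; limma, adjusted p = 4.93e-05), a change of -75.1%, and it lay between -2.08 and -1.90 under all alternatives. Cytochrome c, the mobile electron carrier encoded by Cycs, had 325 and 491 in the mutant arrays against 486, 591, 551 and 478 in the wild-type arrays. One mutant array lay among the wild-type arrays, and the difference of -0.38 did not pass (adjusted p = 0.219). It was -0.092 without mutant replicate 1 and -0.66 without mutant replicate 2.

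Within complex II all 4 genes had differences below 0, where 48.6% of all tested genes and 57.2% of the brightest 25% did so. Of the 4, 1 fell (25%, against 6.35% of all tested genes and 8.94% of the brightest 25%). Sdhd, a membrane anchor subunit that helps to hold ubiquinone and heme, had signals of 2176 and 1952 in the mutant arrays. In the wild-type arrays it had 3764, 4232, 4040 and 4503. The groups were far apart, and Sdhd fell by 1.00 ± 0.10 on the log2 scale (limma, adjusted p = 4.57e-04), a change of -49.9%. Sdhc, the other membrane anchor, had 3128 and 2652 in the mutant against 3483 to 3758 in the wild type (-0.33, adjusted p = 0.0598). Sdhb, the iron-sulfur subunit, had 3007 and 2904 against 3309 to 3869 (-0.27, adjusted p = 0.0913). Neither passed, although their groups did not overlap. Sdha, the flavoprotein that oxidises succinate, overlapped between the groups, with 288 and 312 against 273 to 387 (-0.17, adjusted p = 0.594). The complex II median was -0.30, or -0.23 without mutant replicate 2 and -0.37 without mutant replicate 1.

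Complex III had a median of -0.32, the lowest of the complexes by a narrow margin that other settings did not keep: without mutant replicate 1, complex II had -0.37 and complex III -0.34. All 8 of its genes had differences below 0, where 48.6% of all tested genes and 57.2% of the brightest genes did so. Of the 8, 4 fell (50%, against 6.35% of all tested genes and 8.94% of the brightest genes) and 4 did not pass. Uqcrq, a small subunit known as the ubiquinone-binding protein, had 4827 and 4594 in the mutant arrays against 7180, 8220, 7713 and 8357 in the wild-type arrays. The mutant arrays were close together and well below the others (-0.74 ± 0.09, adjusted p = 0.00109). Uqcrc1, a core subunit on the matrix side, had 3758 and 3483 against 4624, 5204, 4967 and 5110 (-0.46 ± 0.09, adjusted p = 0.0104). Uqcr11, another small subunit, had 2135 and 2231 against 2826, 3239, 2708 and 3019 (-0.43 ± 0.10, adjusted p = 0.0242). Both genes had groups that did not overlap.

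Cyc1 encodes cytochrome c1, which hands electrons to cytochrome c. Its brightest probe set had 6827 and 6923 in the mutant arrays against 8266 to 9206 in the wild-type arrays and fell by 0.35 (adjusted p = 0.0282). A second, dimmer Cyc1 probe set had 2324 and 2613 against 1697 to 2433, a difference of 0.32 with overlapping groups (adjusted p = 0.188). With the mean of both, Cyc1 had -0.012 (adjusted p = 0.953), so its direction depended on the probe set. Of the genes that did not pass, Uqcrb had the largest difference (-0.30, adjusted p = 0.124), and Uqcr10 the smallest (-0.14, adjusted p = 0.449) with overlapping groups.

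**Figure D2:**
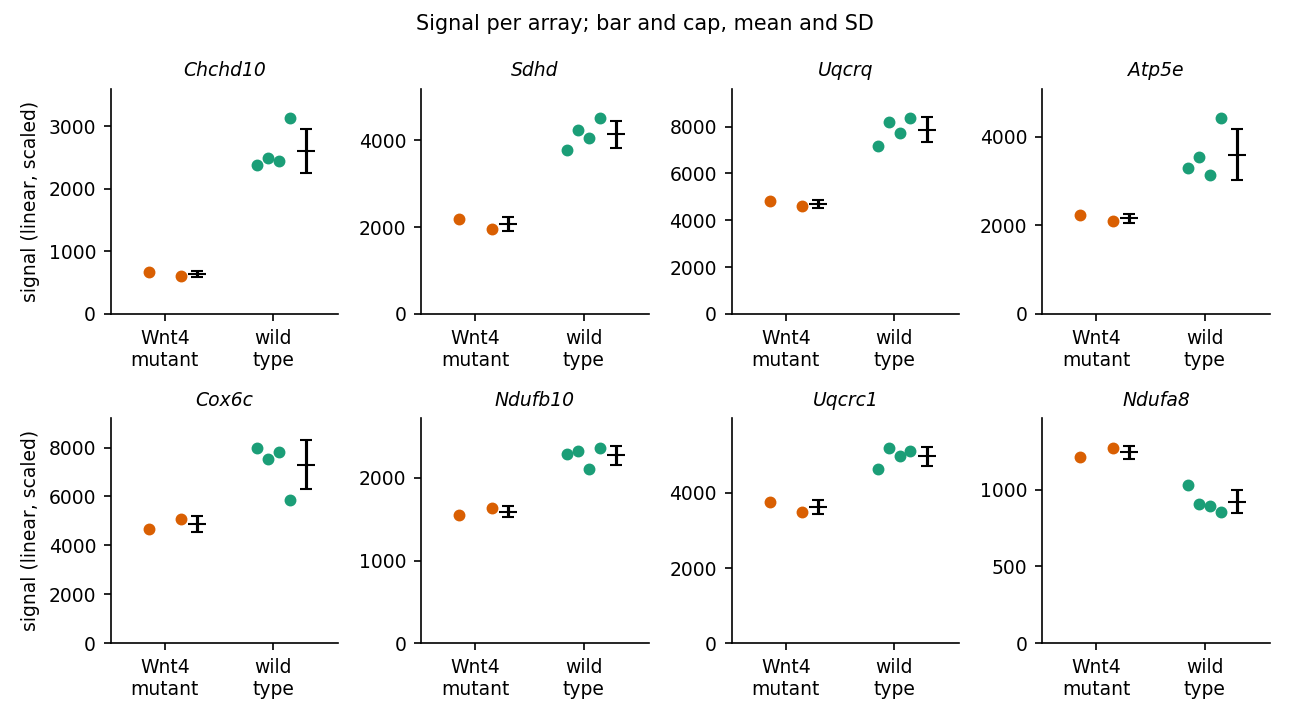
Signal of 8 genes on each array (vertical axes, linear scaled signal from 0), with the 2 Wnt4 mutant arrays left of the 4 wild-type arrays and the mean with its SD beside the points. For 7 genes both mutant points lie under every wild-type point; for Ndufa8 both lie above.

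Complex I, the largest complex, had 29 tested genes, namely 4 that fell, 1 that rose and 24 that did not pass. Its median was -0.19, and both mutant signals were under every wild-type signal for 19 genes (65.5%, against 19.9% of all tested genes and 28.4% of the brightest 25%). The 4 falls made up 13.8%, against 6.35% and 8.94%. Ndufb10, an accessory subunit of the membrane arm, had 1548 and 1638 in the mutant arrays against 2289, 2330, 2105 and 2367 in the wild-type arrays (-0.51 ± 0.09, adjusted p = 0.00796). Ndufa9, an accessory subunit near the ubiquinone site, had 2237 and 2306 against 3045, 2984, 3008 and 3319 (-0.44 ± 0.08, adjusted p = 0.0118). For both, the arrays within a group were closer to each other than to the other group.

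The other falls in complex I were less even. Ndufab1, the mitochondrial acyl carrier protein, had 2190 and 2918 in the mutant arrays against 3481 to 3776 in the wild-type arrays (-0.50 ± 0.12, adjusted p = 0.0282). Its mutant arrays differed from each other more than the wild-type arrays did: the difference was -0.29 without mutant replicate 1 (adjusted p = 0.259) and -0.70 without mutant replicate 2 (adjusted p = 0.0188). The call was lost under 7 of 17 alternatives. Ndufv2, a core iron-sulfur subunit of the arm that oxidises NADH, had 3382 and 3353 against 3954 to 4571 (-0.33 ± 0.09, adjusted p = 0.0473). A dimmer Ndufv2 probe set had 0.17 (adjusted p = 0.678), and the call was lost under 11 of 17 alternatives.

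Ndufa8 was the only member called higher. It encodes an accessory subunit with cysteine motifs, on the intermembrane side of complex I. Its signals were 1214 and 1275 in the mutant arrays, against 1032, 904, 897 and 856 in the wild-type arrays, a difference of 0.43 ± 0.11 (limma, adjusted p = 0.0372). The groups did not overlap, but the call was lost under 7 of 17 alternatives, among them leaving out wild-type replicate 2 or 3 or either mutant array. The assembly factors, which build complex I without remaining in it, went both ways. Ndufaf4 had 176 and 158 in the mutant against 209 to 290 in the wild type (-0.55, adjusted p = 0.115). Ndufaf1 had 543 and 562 against 367 to 501 (0.32, adjusted p = 0.203), so neither passed.

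In complex IV, 11 of 15 genes were tested, 4 fell, 0 rose and 7 did not pass. The 4 falls made up 36.4%, against 6.35% of all tested genes and 8.94% of the brightest genes. In sign alone, 6 differences were below 0 and 5 above. Differences below 0 made up 48.6% over all tested genes and 57.2% over the brightest genes. At an unadjusted p under 0.05 (limma), 5 were below 0 and 0 above it, a count given without a share over all genes. The 4 that fell were Cox6c, Cox7a2, Cox5b and Cox6a1, nuclear subunits used in most tissues. Cox6c had 4651 and 5094 in the mutant arrays against 7997, 7545, 7824 and 5838 in the wild-type arrays (-0.57 ± 0.13, adjusted p = 0.026). Wild-type replicate 4 was the lowest of its group and still above both mutant arrays. Cox7a2, the general form of its subunit, had 5330 and 5298 against 6276 to 7787 (-0.39 ± 0.10, adjusted p = 0.0379). Cox5b, a zinc-binding subunit, had 3729 and 3567 against 4565 to 5253 (-0.38 ± 0.09, adjusted p = 0.0269). Cox6a1, the form found outside heart and skeletal muscle, had 6797 and 6825 against 8032 to 9843 (-0.36 ± 0.10, adjusted p = 0.0493). The last call lay close to the threshold and was lost under 9 of 17 alternatives.

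No tissue-restricted form of complex IV passed. Cox8b, a form of heart and skeletal muscle, had 200 and 229 in the mutant arrays against 149 to 197 in the wild-type arrays (0.23, adjusted p = 0.541). Cox6b2 and Cox8c, forms best known from testis, had differences of 0.21 (adjusted p = 0.278) and 0.24 (adjusted p = 0.33). Cox6a2 and Cox7a1, also forms of heart and skeletal muscle, were below the filter and not tested. Cox7a1 had signals of 10.8 and 18.2 in the mutant against 22.7 to 51.7 in the wild type. These lie under the 40th percentile of every array (101.12 to 110.4), so no direction is given for Cox7a1. Cox7a2l, a factor that joins complexes into supercomplexes, had 2452 and 2468 against 2264 to 2612 (0.01, adjusted p = 0.94). Its groups overlapped.

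Some widely used subunits had low or uneven signals. Cox8a had 24.2 to 45.5 on the mutant arrays and 8.59 to 34.7 on the wild-type arrays and was not tested, and neither was Cox5a. Cox4i1 had 339 and 135 in the mutant against 245 to 328 in the wild type, so the mutant arrays lay on both sides (-0.43, adjusted p = 0.433). Cox6b1 had 192 and 168 against 96.6 to 320 (0.06, adjusted p = 0.945). The complex IV median of -0.25 rested on few genes of unlike direction: it was 0.01 without mutant replicate 2, and -0.36 where only probe sets over the 60th percentile were kept.

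In complex V, 2 of 13 tested genes fell, 0 rose and 11 did not pass. The 2 falls made up 15.4%, where a fall was called for 6.35% of all tested genes and 8.94% of the brightest 25%. At an unadjusted p under 0.05 (limma), 3 were below 0 and 0 above it, a count given without a share over all genes. The median was -0.19 (-0.10 without wild-type replicates 2 and 4), and both mutant signals were under every wild-type signal for 3 genes (23.1%), near the share of the brightest 25% of genes. Atp5e, the epsilon subunit of the catalytic head, had 2229 and 2087 in the mutant arrays against 3281, 3542, 3127 and 4412 in the wild-type arrays (-0.72 ± 0.13, adjusted p = 0.0109). Atp5o, which ties the head to the outer stalk, had 4420 and 4342 against 5555, 6744, 5573 and 7250 (-0.51 ± 0.12, adjusted p = 0.0317). In both genes the wild-type arrays spread widely but stayed above the mutant arrays. Atp5a1, the alpha subunit of the head, had 8814 and 8650 against 8483 to 9677, with overlapping groups (-0.09, adjusted p = 0.567).

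Atp5c1, the gamma subunit of the rotating central stalk, had 5923 and 6006 in the mutant arrays against 6687 to 7329 in the wild-type arrays. Its groups did not overlap, and the difference of -0.21 did not pass (limma, adjusted p = 0.13). A dimmer Atp5c1 probe set had 4241 and 4395 against 4263 to 4719, with overlapping groups (-0.05, adjusted p = 0.749). The groups overlapped for the other 10 tested ATP synthase genes. Atp5g1 and Atp5g2 encode the same ring protein with different import signals and had 0.15 (adjusted p = 0.815) and -0.12 (adjusted p = 0.574). Atp5k had -0.30 (adjusted p = 0.398) and Atp5pb, of the outer stalk, 0.28 (adjusted p = 0.589), the largest differences in each direction that did not pass. Atp5d, the delta subunit of the head, had 5 probe sets that disagreed. Its brightest one had -0.19 (adjusted p = 0.298), while another had 629 and 637 in the mutant against 818 to 1113 in the wild type and fell by 0.64 (adjusted p = 0.0189). The remaining tested ones had -0.02 and 0.21, so no direction is given for Atp5d.

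**Figure D3:**
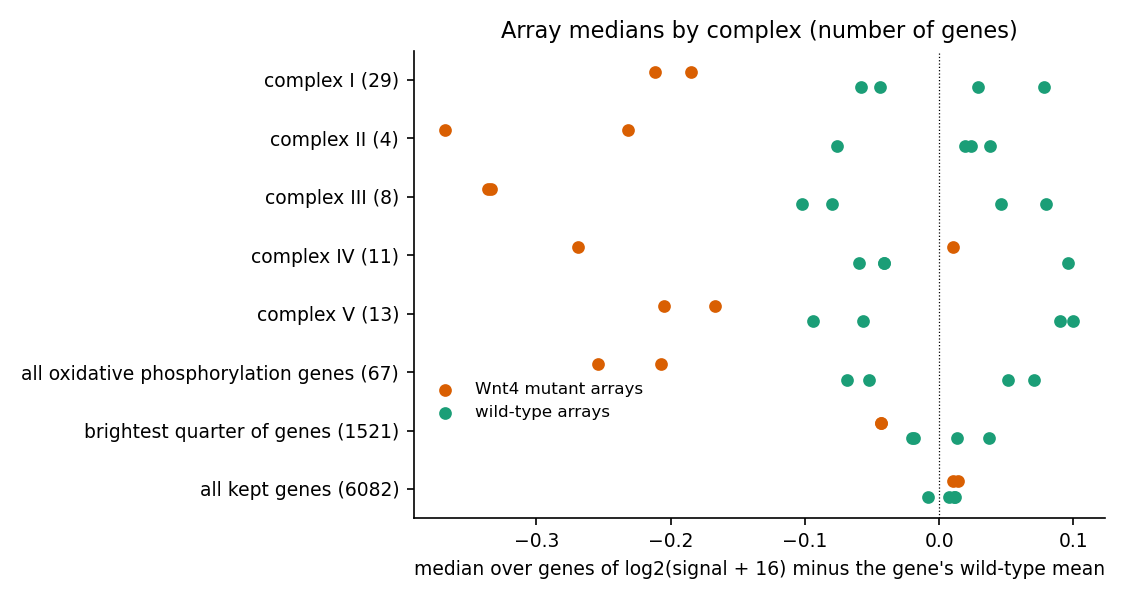
Median over genes of log2(signal + 16) minus the gene's wild-type mean (horizontal axis), for each array and set of genes (vertical axis, number of genes in brackets). Mutant arrays (upper points of a row) lie below all wild-type arrays in complexes I, II, III and V and over all members, but in complex IV mutant replicate 1 (0.010) lies among the wild-type arrays.

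Array by array, the median member stood at -0.207 and -0.254 in mutant replicates 1 and 2, relative to the wild-type mean of each gene. In wild-type replicates 1 to 4 it stood at -0.069, 0.051, -0.052 and 0.071. Both mutant arrays stood below all 4 wild-type arrays. Over all tested genes the same median lay at 0.010 and 0.014 in the mutant arrays, and over the brightest 25% at -0.043 in both. The wild-type arrays had -0.020 to 0.037 over the brightest 25%, so the mutant arrays were lowest there too, by a smaller margin. In complex III the median stood at -0.334 and -0.336 in the mutant arrays, and in complex II at -0.232 and -0.368. In complex IV the mutant arrays stood at 0.010 and -0.269, the first among and the second below the wild-type arrays (-0.060 to 0.096). These medians describe the arrays; differences between complexes were not tested.

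Genes that act beside the complexes were described from lists of other mitochondrial functions. Over 7 lists with 134 tested genes, 14 fell (10.4%) and 0 rose at an adjusted p under 0.05 (limma), though the share that fell was close to the 8.94% of the brightest 25% of genes and the 6.35% of all tested genes. The counts of single lists are small and are given as descriptions. Among 58 tested mitochondrial ribosomal proteins, which make the subunits encoded by mitochondrial DNA, 8 fell (13.8%). The list's median was -0.21, and 50 genes did not pass. Both mutant signals were under every wild-type signal for 26 of them (44.8%), where this held for 19.9% of all tested genes and 28.4% of the brightest 25%. Mrpl50 had 373 and 470 in the mutant arrays against 702 to 752 in the wild-type arrays (-0.80, adjusted p = 0.00457). Mrps12 had -0.74 (adjusted p = 0.00185), Mrpl12 -0.72 (adjusted p = 0.00204) and Mrps26 -0.62 (adjusted p = 0.016).

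The citrate cycle, which supplies NADH and succinate to complexes I and II, had 15 tested genes with a median of -0.23, 1 of them lower (6.67%, near the 6.35% of all tested genes) and 14 short of the threshold. The fall was Pdhb, a subunit of the pyruvate dehydrogenase that feeds the cycle. Its signals were 1128 and 1152 in the mutant arrays against 3095, 2976, 2918 and 3143 in the wild-type arrays. Arrays of a group were nearly equal, and the difference was -1.40 ± 0.08 (limma, adjusted p = 3.65e-05). Its partner subunit Pdha1 had 1948 and 1947 against 2216 to 2612 (-0.30, adjusted p = 0.0711) and did not pass.

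**Figure D4:**
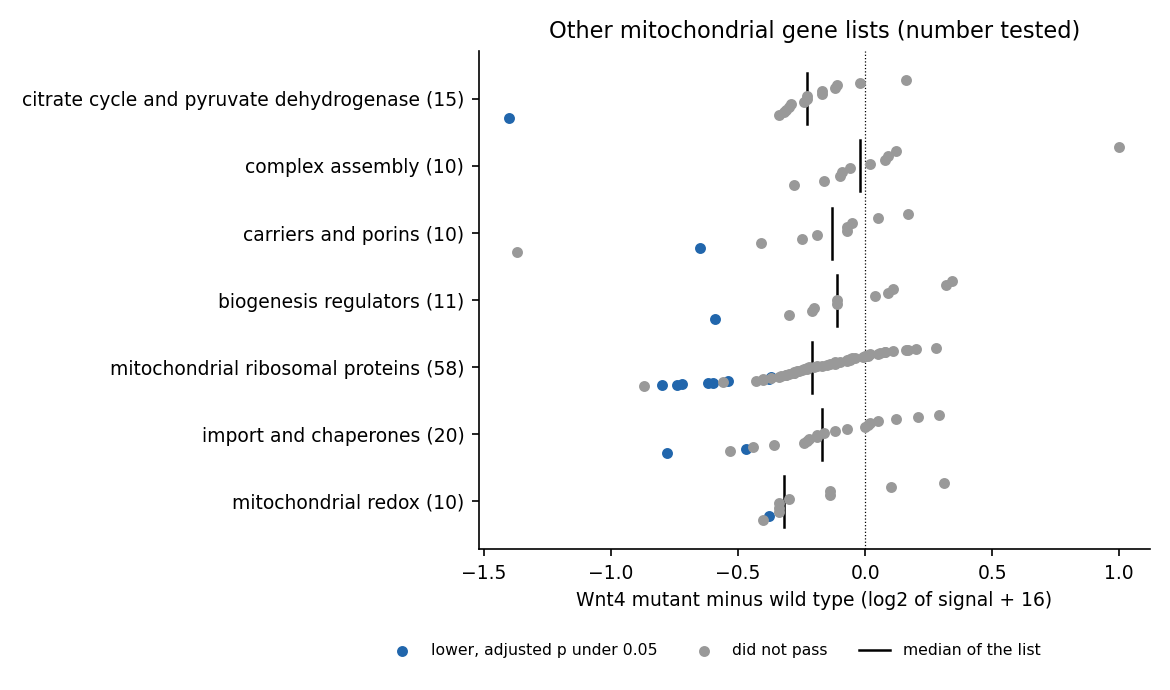
Difference of each tested gene of 7 lists of other mitochondrial functions, Wnt4 mutant minus wild type on the scale of log2(signal + 16) (horizontal axis). Points are genes, blue where called lower, and the bar is the list's median, lowest for mitochondrial redox (-0.32) and nearest 0 for complex assembly (-0.02).

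Import and chaperone genes had 2 falls among 20 (10%). A fall was called for 6.35% of all tested genes and 8.94% of the brightest 25%. Tomm40, the channel of the outer membrane, fell by 0.78 (limma, adjusted p = 0.00826). The matrix chaperone Hspa9 fell by 0.47 (adjusted p = 0.00818), and the list median was -0.17. Among 10 carriers and porins, Slc25a5, which exchanges ADP for ATP, had 1001 and 1006 in the mutant arrays against 1522 to 1624 in the wild-type arrays (-0.65, adjusted p = 0.00182). The other 9 did not pass, so 10% of this list fell, near the 8.94% of the brightest 25%. The median was -0.13, or -0.077 without wild-type replicate 2 and -0.23 without wild-type replicate 4. Of 10 redox genes, 1 fell (10%, likewise near the share of the brightest genes). It was Etfb, which carries electrons from fatty acid oxidation, by 0.38 (adjusted p = 0.0205), and the list median was -0.32. Of 10 tested assembly genes none passed (limma, 1 with an unadjusted p under 0.05), and the median was -0.02. Signals of both mutant arrays were under every wild-type signal for 35% of import, 50% of carrier, 40% of redox and 10% of assembly genes. This held for 19.9% of all tested genes and 28.4% of the brightest 25%.

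Among 11 tested regulators of mitochondrial biogenesis, 1 fell (9.09%, against 6.35% of all tested genes and 8.94% of the brightest 25%). It was Esrra, the estrogen-related receptor alpha, a transcription factor for respiratory genes, with 387 and 323 in the mutant arrays against 586, 506, 599 and 481 in the wild-type arrays. The groups did not overlap, and the difference was -0.59 ± 0.15 (limma, adjusted p = 0.0357). The regulator Ppargc1a and the mitochondrial DNA factor Tfam had low signals (6.81 to 37.5 and 52.4 to 55 in the mutant, 11 to 48.1 and 30.7 to 90.2 in the wild type) and were not tested. Gabpa, a subunit of GABP, had 0.32 with overlapping groups (adjusted p = 0.289). Gabpb1, another subunit, went the other way, with 537 and 580 in the mutant arrays against 659 to 718 in the wild-type arrays (-0.30, adjusted p = 0.11). Neither passed. The median of this list, -0.11, was 0.025 and 0.0055 without mutant replicate 1 and 2.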

How the data were processed

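RNA from pooled whole kidneys was amplified in 1 round and hybridised to one-colour Affymetrix arrays, per the labels' protocols. The deposited values are linear signals (intensity) per probe set; GCOS, the Affymetrix software, is named per the submitters' processing notes, and no source used here gives its settings. Each deposited column had a mean of 500.27 to 500.29 without the lowest and highest 2% of values, so arrays were already scaled. The number of arrays limits the precision.

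Symbols were updated by gene identifier to RefSeq (GRCm38.p6), which matched 10817 of 10833 probe sets with 1 symbol. Probe sets with several symbols were not used, 10 of them with a respiratory gene. Probe sets for controls (66) were left out. Those above the 40th percentile of their own array on at least 2 arrays were kept (7981). Of the 67 tested members, 17 were read by probe sets with the suffix f, i, r or s, Affymetrix's mark for probes that other transcripts may share or that were chosen under relaxed rules; 3 of them were among the 16 lower genes (Atp5e, Cox6a1 and Cox6c). Processed copies of these genes can therefore add to the signal. Over the 50 other members 13 fell, and the median was -0.23.

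Differences of log2(signal + 16), which understate changes of low signals, were tested with limma 3.58.1 (R 4.3.3; lmFit and eBayes, trend on, no covariate), and p-values were adjusted by Benjamini-Hochberg over the 7981. SE is that of the fit. The fit was tested on simulated data. The 6 arrays can be split in 15 ways, so no permutation p under 1 in 15 could be reached and none is given. Pools of 1 group are the replicates.

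Named genes were the members past the threshold, the largest difference in each direction that did not pass in each complex, tissue forms, Sdha to Sdhd, Cyc1, Cycs and Chchd10, up to 4 called genes per related list, and Ppargc1a, Tfam, Nrf1 (no probe set of its own here) and Esrra. Other genes are named in passing for their role. Members, lists, motifs and this rule were chosen with earlier results of these data known. No gene encoded by mitochondrial DNA was read.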

Additional observations from a re-analysis of the deposited data

Results flagged for a closer look

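Of 51 genes and list medians checked for 1 wild-type array far from the other 3, 4 were picked out; chance alone would give about 1 in 20. The measure is the gap to the nearest array over the range of the group, and passed Dixon's 95% critical value for 4 arrays. Atp5g2 had 1188 in wild-type replicate 2 and 1032 to 1034 in the others (0.987). Cox5b had 5253 in wild-type replicate 2 and 4565 to 4625 in the others (0.907), and its fall passed without that array too. The complex IV median stood highest in wild-type replicate 2 (0.879), at 0.096 against -0.060 to -0.041. The complex II median stood lowest in wild-type replicate 1 (0.834), at -0.076 against 0.019 to 0.038.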

How the results depend on the processing

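Medians of all members and of complexes I, III and V moved by less than the spread between wild-type arrays under all 18 alternatives. With array weights, 738 probe sets were lower, 613 higher and 25 genes of the related lists lower; without a variance trend, 4 members were lower and 0 higher. With a filter at the 60th percentile the complex IV median was -0.36 and the redox median -0.22; averaging each gene's probe sets, the redox median was -0.22. Without wild-type replicates 2 and 4 the citrate cycle, import and redox medians were -0.17, -0.13 and -0.27.

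No pairing by replicate number was visible, as deviations of same-numbered arrays correlated at 0.00 and -0.02. The deviations of 2 mutant arrays from their mean mirror each other, so these values cannot show whether samples were paired. With the replicate block, 9 members were lower and 0 higher, 9 genes of the related lists were lower, and the medians of carriers, biogenesis regulators, import and redox were -0.24, 0.046, -0.10 and -0.26. Differences that did not pass changed sign with the block for Atp5g1 (-0.072), Atp5pb (-0.0047) and Cox6b1 (-0.41).

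Leaving out 1 array gave 188 to 553 lower and 114 to 448 higher probe sets, 3 to 16 lower and 0 to 1 higher members, and 5 to 18 lower genes of the related lists. The medians ran from -0.37 to -0.23 (complex II), -0.28 to 0.01 (complex IV), -0.14 to 0.025 (biogenesis regulators), -0.23 to -0.077 (carriers), -0.24 to -0.14 (mitochondrial ribosomal proteins), -0.20 to -0.14 (import) and -0.32 to -0.22 (redox). Signs also changed for Cox6b1 (-0.031 without mutant replicate 1, -0.0045 and -0.19 without wild-type replicates 3 and 4), Cox4i1 (0.19 without mutant replicate 2), Cox7a2l (-0.02 and -0.0052 without wild-type replicates 1 and 3) and Atp5g1 (-0.0049 without wild-type replicate 4); their highest or lowest values were 0.33, -1.05, 0.048 and 0.29. The biogenesis median was 0.0055 without mutant replicate 2 and -0.035 without wild-type replicate 3. Causes were not tested. Cyclic loess normalization, added after seeing the data, left 14 of the 16 lower members past the threshold. Leaving out 1 mutant array leaves a lone array, assumed to vary like the others.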

Other observations

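Genes next to the members with the largest falls were looked up after their values had been seen. Timm8b, which encodes a small import chaperone of the intermembrane space, is annotated 52 bases from Sdhd. It had 1070 and 1100 in the mutant arrays against 1088, 1155, 1089 and 1244 in the wild-type arrays (-0.07 ± 0.10, SE; limma, adjusted p = 0.697), so its groups overlapped while Sdhd fell by 1.00. Mmp11, a matrix protease gene annotated 628 bases from Chchd10, had 652 and 727 in the mutant arrays against 361, 392, 373 and 302 in the wild-type arrays. It rose by 0.92 (limma, adjusted p = 0.0043), while Chchd10 fell by 2.00.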
